A study of Mus musculus with 32 samples.

Results

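Mouse embryonic fibroblasts (MEFs) that made ACLY-Nuc were compared with MEFs that made ACLY WT, both in medium with 10 mM glucose. ACLY is ATP-citrate lyase. The comparison took 8 of the 32 samples of the series, 4 libraries of each line, and every one of the 12791 genes with a symbol in the table for that medium. Both lines carried the same knockout of the mouse Acly gene and received mCherry-tagged human ACLY in the same vector. In ACLY WT (WT below) the tagged enzyme had no added signal, and in ACLY-Nuc (Nuc) it carried additional nuclear import sequences. Cells were held in the 10 mM glucose medium for 24 h before RNA was taken. Knockout cells with mCherry alone (KO) and cells whose ACLY carried a nuclear export sequence (Cyto) were grown beside them, and their levels are given for orientation. The sources used here do not give the promoter in the vector, whether a line was 1 clone or a pool, or whether the libraries of a line came from separate cultures. The p-values therefore measure the spread between these samples, which may be technical.

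ACLY splits citrate that has left the mitochondria into acetyl-CoA and oxaloacetate. Acetyl-CoA is the building block of cholesterol and of fatty acids and the donor for acetylation of histones. ACLY is found in the cytosol and in the nucleus, and a construct that moves it towards the nucleus asks which of these uses depends on where acetyl-CoA is made. Fibroblasts are known for the collagens, elastic fibres and proteoglycans they lay down and for a contractile programme driven by serum response factor (SRF).

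Acly itself was read first. Its log2 level was 10.18, 10.28, 10.24 and 10.14 in the WT libraries and 9.24, 9.07, 9.18 and 8.98 in the Nuc libraries. All Nuc libraries lay below all WT libraries, with a log2 fold change of -1.09 ± 0.09 (limma's standard error throughout, n = 4 against 4, adjusted p = 1.84e-07), which is 2.13-fold lower. The mean was 5.87 in KO and 9.74 in Cyto. The sources used here do not say how reads of the human transgene came to be listed under the mouse gene, so these levels check the labels and do not measure ACLY protein. Where the protein lay in the cell, and how much acetyl-CoA it made, was not measured here. The Nuc and WT lines therefore differed in the import signal and in Acly transcript together, and the part of each in the results below cannot be told apart.

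The libraries had the marks of fibroblasts. Of 15 fibroblast markers 14 were listed, among them Col1a1, Col1a2, Col3a1, Vim and Thy1. Of the markers of other cell types, 2 of 12 epithelial, 3 of 10 endothelial, 4 of 12 macrophage and blood, 4 of 12 muscle, 5 of 10 adipocyte, 3 of 10 cartilage and bone and 5 of 10 neural and glial ones were listed. Epcam, Cdh1, Ptprc, Adipoq, Myod1 and Sox10, defining markers of 5 of these cell types, were not in the table. Of the listed ones, 3 adipocyte, 2 muscle, 2 neural, 1 blood and 1 cartilage or bone marker were called higher, and 1 adipocyte, 1 muscle and 1 blood marker lower. The CPM summed over the listed adipocyte markers was 571 to 610 in Nuc and 436 to 454 in WT libraries, over the muscle markers 36.4 to 41.8 and 16.1 to 19.2, over the neural markers 261 to 359 and 194 to 221, and over the blood markers 29.4 to 36.5 and 20.5 to 22.2. The part of these levels in the results was not tested. Fewer cells of a type and less RNA per cell cannot be told apart in these bulk samples. Sequencing depth is unknown, since only log2 CPM values (reads of a gene scaled to a common library total) were deposited, with no read counts. The first principal component over the 15 libraries of the medium held 28.1% of the variance, with Nuc at one end, KO at the other and WT and Cyto between them. Deviations of same-numbered Nuc and WT libraries from their group means correlated most for number 4 (Pearson r = 0.62 across genes), and numbers 1 to 3 did not stand out from differently numbered pairs of libraries 1 to 3.

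Nuc and WT differed at many genes. Of the 12791 genes 3685 were called at an adjusted p under 0.05, which is 28.8% of all genes, 1922 of them higher in Nuc (15%) and 1763 lower (13.8%). Most differences were small, with a median size of 0.48 on the log2 scale among called genes. At least 2-fold differences were called for 671 genes (5.25%), 442 higher (3.46%) and 229 lower (1.79%), and at least 8-fold differences for 37 higher and 42 lower genes. The 4 Nuc libraries lay wholly above or below the 4 WT libraries at 3831 genes (30%). The median log2 fold change over all genes was 0.00. Counts of called members in the gene lists below stand beside these shares of all genes, 28.8% called, 15% higher and 13.8% lower. Values given below after "higher" or "lower" are log2 fold changes of Nuc against WT with limma's standard error, and those called higher or lower had an adjusted p under 0.05.

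**Figure D1:**
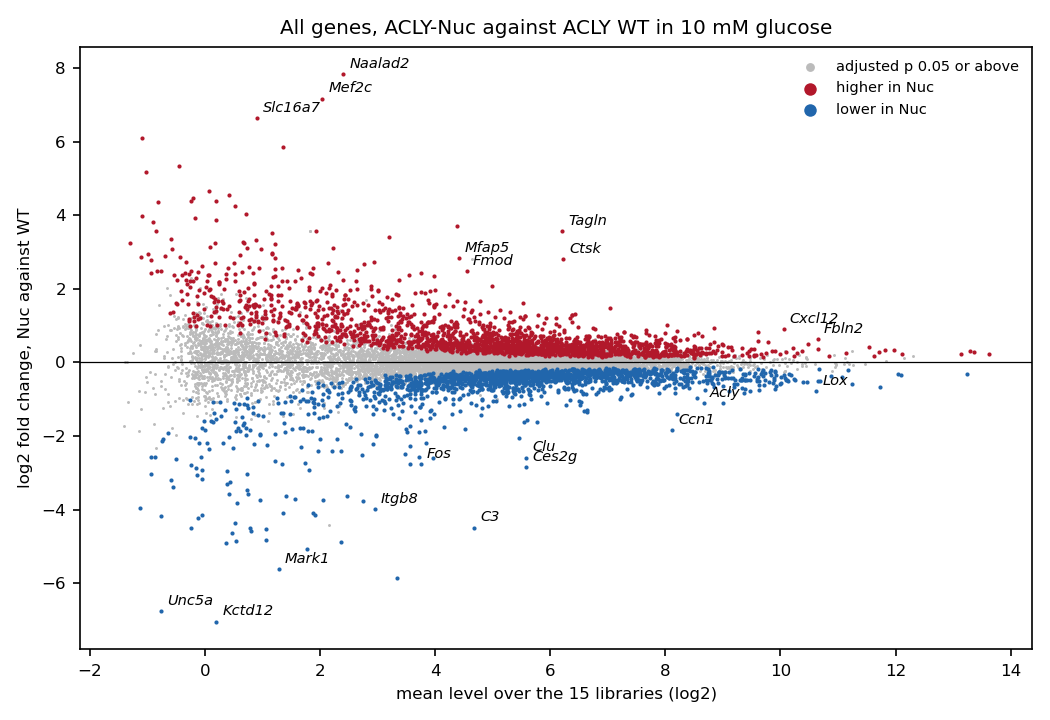
Each point is 1 of the 12791 genes, with its mean log2 level over the 15 libraries in 10 mM glucose on the x axis and the log2 fold change of Nuc against WT on the y axis. Red and blue points had an adjusted p under 0.05 (1922 higher, 1763 lower). The genes named at the top and bottom edge, such as Naalad2 and Kctd12, were near the lowest listed value in one of the lines.

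The levels in KO and Cyto describe which line stood apart among genes called at least 2-fold. These genes were picked by the gap between Nuc and WT, which favours Nuc or WT standing apart. The same counts over all genes were not made, so those below are a description only. Among the 442 genes called at least 2-fold higher in Nuc, 124 had only Nuc apart (every Nuc library above every library of the other lines), 109 had only WT apart (every WT library below every library of the other lines), and 23 more had both. Among the 229 called at least 2-fold lower, 90 had only Nuc apart, 39 had only WT apart and 18 more had both. Tagln, Clu and Mfap5 below are examples. The remaining 186 higher and 82 lower genes had neither line apart.

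Among genes at or above the median level, Tagln had the highest fold change. Tagln encodes transgelin (SM22), an actin-binding protein of smooth muscle and contractile fibroblasts. Its log2 level was 4.39, 4.8, 4.59 and 4.56 in the WT libraries and 8.14, 7.96, 8.11 and 8.44 in the Nuc libraries. The log2 fold change was 3.57 ± 0.13, or 11.9-fold higher, and the groups were far apart. Means of 5.79 in KO and 6.31 in Cyto put WT lowest and Nuc highest of the 4 lines.

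Ctsk, which encodes the collagen-degrading protease cathepsin K, came next. Its level was 4.89, 4.86, 4.86 and 4.87 in the WT libraries and 7.54, 7.60, 7.66 and 7.89 in the Nuc libraries, a log2 fold change of 2.81 ± 0.09 (7.0-fold). KO and Cyto again lay between, at 5.82 and 6.65. Kcnj15, a potassium channel gene, was higher by 2.08 ± 0.24, and Gstp1, a glutathione S-transferase, by 1.61 ± 0.12. Gstp1 has the near-identical copy Gstp2, so its value is uncertain. P2rx3, the gene of an ATP-gated ion channel, was higher by 1.47 ± 0.11.

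The rest of the highest genes spanned several roles. Loxl2, which encodes a collagen and elastin crosslinking oxidase, was higher by 1.36 ± 0.14, and Tspan7, a tetraspanin gene, by 1.42 ± 0.09. Arl4c, a small GTPase gene, and Pcdh7, a protocadherin gene, had 1.33 ± 0.07 and 1.30 ± 0.10. Prkg2, a cGMP-dependent protein kinase gene, had 1.30 ± 0.10, and Sema3c, a secreted guidance cue, 1.29 ± 0.08. Hk2, Wdr6, Sort1 and Bhlhe40 closed the 15 highest with 1.26, 1.23, 1.23 and 1.22. Sort1 encodes the sorting receptor sortilin and Bhlhe40 a repressor linked to the circadian clock.

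At the low end stood Ces2g, a carboxylesterase gene. Its log2 level was 6.43, 6.27, 6.39 and 6.48 in the WT libraries and 3.66, 3.78, 3.41 and 3.37 in the Nuc libraries, 7.12-fold lower in Nuc (-2.83 ± 0.09). KO had the highest mean of the 4 lines, 7.02, and Cyto lay between WT and Nuc at 5.30. Clu, which encodes the secreted chaperone clusterin, was 7.47, 7.31, 7.22 and 7.34 in the WT libraries and 4.48, 4.8, 4.89 and 4.83 in the Nuc libraries. Its log2 fold change was -2.58 ± 0.12, but KO and Cyto, at 5.25 and 4.75, were near Nuc, and WT was the line that stood apart.

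Nsg1, an endosomal protein gene of neurons, was lower, at -2.06 ± 0.18, and Dpt, which encodes the matrix protein dermatopontin, at -1.62 ± 0.12. Aoc3, a cell-surface amine oxidase gene, had -1.62 ± 0.08. Slc5a3, the inositol transporter gene, Sqor, which oxidises sulfide in mitochondria, and Zmym2 had -1.33, -1.29 and -1.18. Plau (urokinase) and Pde3b (a cyclic nucleotide phosphodiesterase) had -1.15 and -1.15. Rpl34-ps1, at -1.56, is listed as a pseudogene, and its reads can be shared with Rpl34, so its value is uncertain. Ccn1, Egr1, Ier2 and Sema3f, also among the 15 lowest, are described with their groups.

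**Figure D2:**
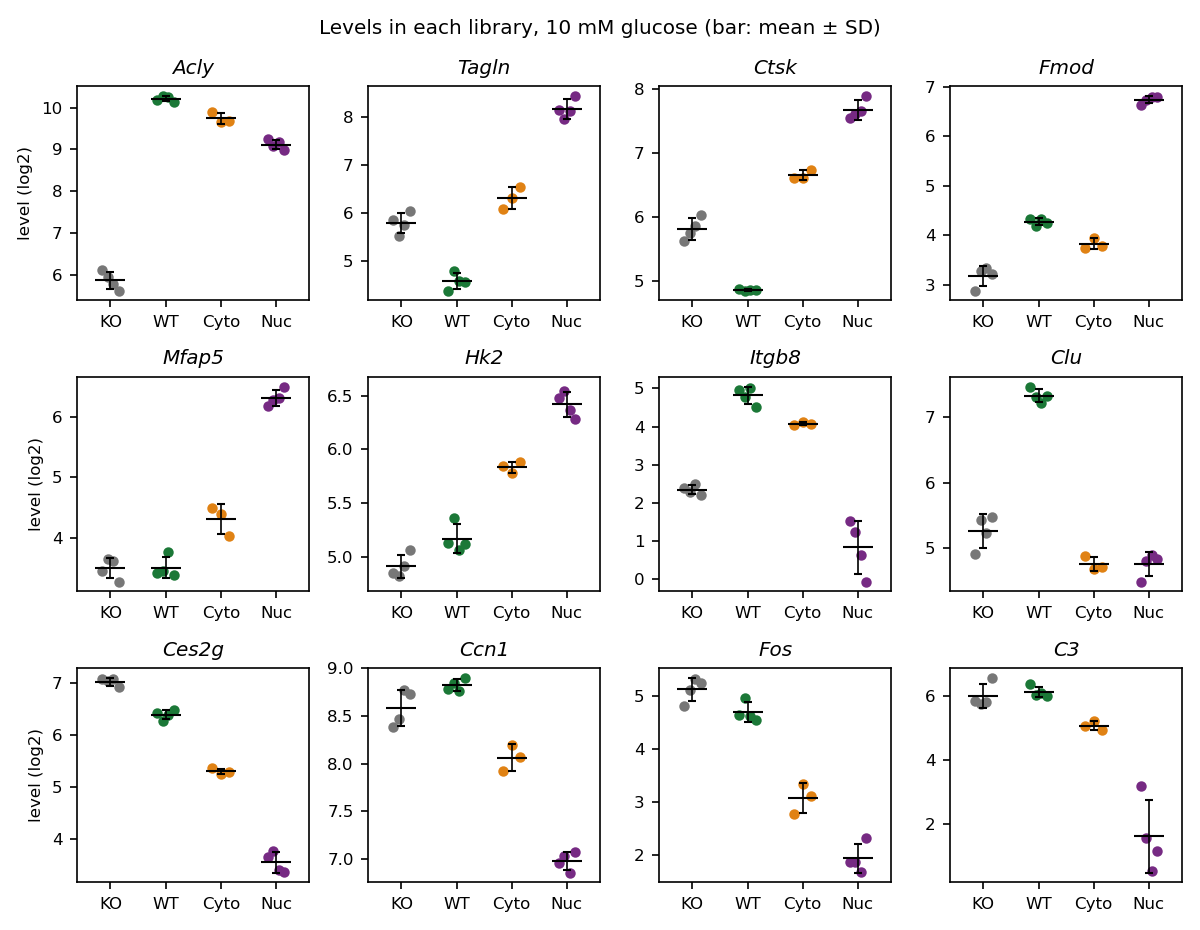
Log2 levels of 12 genes in every library in 10 mM glucose, by line (KO, WT, Cyto, Nuc), with the mean and SD over libraries as bars, and each panel on its own y scale. Nuc had the highest or the lowest mean of the 4 lines in every panel but that of Acly. In Clu the Nuc and Cyto means were both 4.75 and the WT libraries stood above all others.

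Cholesterol synthesis joins acetyl-CoA units into mevalonate, builds squalene, closes the ring and then trims the sterol to cholesterol. Of 20 measured genes of the pathway 9 were called higher and 3 lower, with a median log2 fold change of 0.20 (0.00 over all genes). Without WT 1, Nuc 1 or Nuc 3, where a number names the library of the line, 5 were called higher. Cyp51 and Hsd17b7, which act on the ring after it is closed, were higher by 0.57 ± 0.07 and 0.57 ± 0.09. Ebp, the sterol isomerase gene, was higher by 0.48 ± 0.10, and Mvk, the mevalonate kinase gene, by 0.41 ± 0.10. Fdft1 went the other way. It encodes squalene synthase, the first step committed to sterols, and its level was 6.59, 6.61, 6.58 and 6.80 in the WT libraries and 5.66, 5.68, 5.86 and 5.95 in the Nuc libraries. The log2 fold change was -0.86 ± 0.09, with KO and Cyto means of 6.87 and 7.09, both above WT. Fdps, Lss and Dhcr7 did not pass, with -0.02, 0.13 and -0.38.

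Of 11 measured genes of SREBP control and cholesterol uptake 1 was called (9.09%, against 28.8% of all genes). It was Npc1, which exports cholesterol from lysosomes, and it was higher by 0.86 ± 0.08. Srebf2, the master regulator of the pathway, had 0.09 ± 0.06 and did not pass (adjusted p = 0.271). Among 10 measured targets of the sterol receptor LXR and efflux genes 3 were higher (30.0%, near the share of all genes). Among them were Pltp (0.31 ± 0.06) and Lpcat3 (0.36 ± 0.08), which handle phospholipids. The efflux pump gene Abca1 had -0.03 ± 0.16 and did not pass (adjusted p = 0.908).

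Of 19 measured fatty acid synthesis genes 7 were called higher and 1 lower. The number higher was 3 without WT 1 or Nuc 3 and 4 without WT 2. Fasn, fatty acid synthase, was higher by 0.26 ± 0.07, and Acsl4, which activates fatty acids with coenzyme A, by 0.39 ± 0.10. Tecr, of the elongation cycle, was lower, at -0.38 ± 0.08. Acaca, which makes malonyl-CoA from acetyl-CoA, had 0.33 ± 0.17 and did not pass (adjusted p = 0.167), and with the replicate number as a block it passed (0.33, adjusted p = 0.0296), as it did without Nuc 4 (0.47, 0.0386). The desaturase gene Scd1 had 0.20 ± 0.07 and did not pass (0.052), and with the replicate number as a block it passed (0.20, adjusted p = 0.00796), as it did without Nuc 4 (0.28, 0.00161).

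No other route to acetyl-CoA was called higher in Nuc. Of 11 measured genes of acetyl-CoA supply 3 were called, all lower (27.3%, near the 28.8% of all genes). They were Acly itself, Acat1 (-0.66 ± 0.21), which acts on ketone bodies in mitochondria, and Nudt7 (-0.41 ± 0.12), which cleaves coenzyme A in peroxisomes. The call of Acat1 was lost without WT 3, WT 4, Nuc 1 or Nuc 2 (adjusted p from 0.0748 to 0.0917), and that of Nudt7 without WT 1 or Nuc 1 (0.0688 and 0.0542). Both calls were also lost without all libraries numbered 4 (adjusted p = 0.107 and 0.0561). Acss2, which makes acetyl-CoA from acetate in cytosol and nucleus, had -0.08 ± 0.15 (adjusted p = 0.735), and the citrate carrier Slc25a1 had -0.03 ± 0.07 (0.805). Among 18 measured fatty acid oxidation genes 2 were higher and 1 lower, a share below that of all genes. The higher ones were Slc25a20, the carnitine carrier of the inner mitochondrial membrane (0.63 ± 0.13), and Cpt1c (0.39 ± 0.07).

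Glucose uptake and glycolysis split. Of 23 measured members 4 were higher and 8 lower. The number lower was 5 without WT 3, WT 4, Nuc 2 or Nuc 3, with no intensity trend, and with Nuc and WT fitted alone. Hk2, the inducible hexokinase that traps glucose as glucose 6-phosphate, was the most changed. Its log2 level was 5.12, 5.37, 5.06 and 5.12 in the WT libraries and 6.48, 6.55, 6.37 and 6.29 in the Nuc libraries, a 2.39-fold difference (1.26 ± 0.09). The KO mean was 4.91 and the Cyto mean 5.83. Below it in the pathway, the phosphofructokinase genes Pfkm and Pfkp were lower, at -0.35 ± 0.06 and -0.40 ± 0.07, and the lactate and pyruvate carrier Slc16a1 at -0.62 ± 0.08. Txnip, which rises with glucose and restrains its uptake, was lower, at -0.47 ± 0.06. Hk1, Gapdh and Ldha had -0.0033, -0.03 and -0.08 and did not pass.

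The pentose phosphate pathway, which makes NADPH and ribose, was lower at 3 of 7 measured genes and higher at none. G6pdx, its first and rate-limiting enzyme, was 6.26, 6.30, 6.66 and 6.24 in the WT libraries and 5.70, 5.57, 5.83 and 5.53 in the Nuc libraries (-0.71 ± 0.10). KO and Cyto, at 6.98 and 6.67, were above WT, so Nuc was the lowest line. Tkt (transketolase) and Rpia were lower, at -0.48 ± 0.09 and -0.61 ± 0.13. Pgd, Taldo1, Pgls and Rpe did not pass.

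Genes of the TCA cycle and pyruvate entry were called at 8 of 27 members, 3 higher and 5 lower, a share near that of all genes. The number lower was 8 without Nuc 4 and 9 with arrayWeights. Cs, the citrate synthase that makes ACLY's substrate, was lower, at -0.43 ± 0.05, Idh3b at -0.35 ± 0.07 and Sucla2 at -0.41 ± 0.09. Idh3a and Dlst were higher by 0.26 ± 0.07 and 0.23 ± 0.06. Idh3a and Idh3b encode subunits of the same enzyme.

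Transcripts made inside mitochondria were higher. Of the 13 measured, 7 were called higher and none lower, with mt-Cytb at 0.35 ± 0.05, mt-Co1 at 0.29 ± 0.05 (0.13 with quantile normalization) and mt-Nd4 at 0.29 ± 0.06. Their share of the nominal CPM total was 3.49%, 3.49%, 3.55% and 3.51% in WT and 4.15%, 4.19%, 4.20% and 4.08% in Nuc libraries. The groups did not overlap, and the means were 4.16% ± 0.0533 in Nuc and 3.51% ± 0.0260 in WT (SD, n = 4). The difference of 0.646 percentage points had p = 0.0286 by a two-sided exact permutation test, the smallest p that 4 against 4 libraries allow. The share was 4.74%, 4.79%, 4.72% and 4.70% in KO and 3.74%, 4.06% and 4.40% in Cyto libraries. Every WT library thus lay below every library of the other lines, and the Nuc libraries lay within the range of Cyto. The share moved with the line in the same libraries as every result here, and its part in them was not tested.

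Histone-modifying enzymes were next, since histone acetylation uses nuclear acetyl-CoA. Genes of acetyltransferases and of bromodomain readers, which bind acetylated histones, were called at 5 of 20 members, 2 higher and 3 lower, close to the share of all genes. Hat1, which acetylates newly made histone H4, was lower, at -0.40 ± 0.07. Naa10, of amino-terminal acetylation, was lower, at -0.39 ± 0.12, a call that was lost without WT 2 or Nuc 2 (adjusted p = 0.0571 and 0.0726). The values of Kat2b and Brd1 were 0.39 and 0.19, and their calls were lost for most libraries left out singly (adjusted p up to 0.0968 and 0.12). The call of Kat2b was also lost without all libraries numbered 4 (0.0727). That of Brd1 was lost with no intensity trend (0.0599) and with Nuc and WT fitted alone (0.0562). Ep300, Crebbp and Kat5 had 0.04, -0.34 and -0.07 and did not pass.

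Of 18 histone deacetylase and sirtuin genes 3 were higher and none lower (16.7% called, against 28.8% of all genes). The share higher was near the 15% of all genes. Hdac9, a class IIa deacetylase gene, was 0.38, 0.39, 0.73 and -0.16 in the WT libraries and 2.25, 1.96, 2.02 and 1.47 in the Nuc libraries (1.59 ± 0.36). KO and Cyto were at 0.54 and 0.65, near WT. Hdac11 was higher by 1.23 ± 0.16 and Hdac7 by 0.27 ± 0.07, while Hdac1, Hdac2 and Hdac3 had -0.09, 0.06 and -0.04 and did not pass. Among 11 DNA methylation and TET genes 3 were higher and 1 lower (36.4% called). The lower one was Uhrf1, which recruits the maintenance methyltransferase (-0.43 ± 0.06), while Dnmt1 had 0.12 ± 0.07 and did not pass.

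Contractile genes were called higher at 7 of 17 members and lower at 1, against 15% and 13.8% of all genes. Beside Tagln, which stood far above the rest, Lmod1 (leiomodin), Actn1 (alpha-actinin) and Cald1 (caldesmon) were higher by 0.55 ± 0.07, 0.51 ± 0.08 and 0.40 ± 0.09. Myl9, the regulatory myosin light chain, was higher by 0.30 ± 0.10, a call that was lost without WT 1, WT 2, WT 3, Nuc 3 or Nuc 4 (adjusted p from 0.0677 to 0.0987), with no intensity trend (0.0693) and with Nuc and WT fitted alone (0.0512). Filip1l was lower, at -0.85 ± 0.08. Not every member was called. Acta2, the smooth muscle actin by which myofibroblasts are recognised, was 11.38, 11.35, 11.46 and 11.51 in the WT libraries and 11.34, 11.28, 11.42 and 11.54 in the Nuc libraries. The groups overlapped, and the log2 fold change was -0.03 ± 0.06 (adjusted p = 0.761). Mylk, Tpm2 and Smtn, at -0.08, -0.12 and -0.14, did not pass either.

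SRF and its partners set these genes together with the immediate early genes. Of 9 measured genes listed with SRF and MRTF, not all of them regulators, 3 were lower and 1 higher (44.4% called, against 28.8% of all genes). Srf itself was lower, at -0.45 ± 0.06, and Fhl2 at -0.40 ± 0.10. Vcl, which encodes the adhesion protein vinculin and no regulator, was lower, at -0.57 ± 0.10. Elk3 was higher by 0.31 ± 0.06. The coactivator Mrtfb and the cofactor Elk1 had -0.08 and 0.08 and did not pass.

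Immediate early genes, which are switched on within minutes of serum or stress, were lower at 10 and higher at 4 of 23 measured members, with a median of -0.21. Fos, a component of the AP-1 factor, was 4.64, 4.97, 4.63 and 4.54 in the WT libraries and 1.87, 1.87, 1.68 and 2.32 in the Nuc libraries. Its log2 fold change was -2.76 ± 0.16, 6.77-fold lower, and KO had 5.12 and Cyto 3.07. Egr1, a zinc finger factor, was 8.60, 8.72, 8.66 and 8.64 in the WT libraries and 7.31, 7.44, 7.19 and 7.13 in the Nuc libraries (-1.39 ± 0.08). KO and Cyto, at 8.57 and 8.38, were near WT.

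Zfp36, whose product tristetraprolin destroys AU-rich mRNAs, was 4.49, 4.72, 4.58 and 4.37 in the WT libraries and 2.79, 2.92, 2.91 and 2.51 in the Nuc libraries, a log2 fold change of -1.75 ± 0.14. Ier2 and Ier3 were lower, at -1.34 ± 0.11 and -1.04 ± 0.10. Fosb and Atf3, at -0.21 and 0.28, did not pass, and neither did Nr4a1 (0.13). Of the 4 genes that were higher, Klf10 had 1.10 ± 0.12 and Fosl2, a relative of Fos, 0.43 ± 0.09.

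Genes that feed back on the kinase ERK went both ways, 6 higher and 5 lower of 18 measured. Dusp1, a phosphatase of stress kinases and ERK and an immediate early gene itself, was 5.21, 5.12, 5.12 and 5.14 in the WT libraries and 3.44, 3.40, 3.39 and 3.12 in the Nuc libraries (-1.81 ± 0.12). Dusp5, a nuclear ERK phosphatase, was lower, at -0.90 ± 0.10. Dusp4 and Spry4 were higher by 1.08 ± 0.10 and 1.39 ± 0.14. Hbegf, which encodes a ligand of the EGF receptor, was 3.22, 3.03, 3.19 and 3.11 in the WT libraries and 4.66, 4.76, 4.56 and 4.65 in the Nuc libraries (2.87-fold), with KO and Cyto at 4.23 and 4.8. WT was the lowest of the 4 lines for Hbegf.

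SRF binds the CArG box, so the promoters of 4 called genes of these lists that hold it are shown. Egr2, which was called lower, holds it too and is not shown. They are the 250 bases before the transcription start in RefSeq (GRCm38.p6, 5′ to 3′ on the gene's strand), with CArG boxes in capitals. Myl9 (chr2:156775214-156775463, plus strand) was higher in Nuc. Filip1l (chr16:57548992-57549241, plus strand, the one of its 2 listed starts that holds a box), Zfp36 (chr7:28379229-28379478, minus strand) and Dusp5 (chr19:53528895-53529144, plus strand) were lower.
Myl9: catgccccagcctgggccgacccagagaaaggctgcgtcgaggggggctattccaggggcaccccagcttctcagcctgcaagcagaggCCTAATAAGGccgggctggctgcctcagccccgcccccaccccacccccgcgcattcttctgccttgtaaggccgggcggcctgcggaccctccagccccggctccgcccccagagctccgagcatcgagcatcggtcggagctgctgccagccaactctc
Filip1l: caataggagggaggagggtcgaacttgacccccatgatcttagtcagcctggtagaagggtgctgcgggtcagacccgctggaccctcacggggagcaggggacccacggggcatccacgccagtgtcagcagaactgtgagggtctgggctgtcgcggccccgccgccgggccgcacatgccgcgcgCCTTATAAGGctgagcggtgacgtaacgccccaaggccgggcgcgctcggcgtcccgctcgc
Zfp36: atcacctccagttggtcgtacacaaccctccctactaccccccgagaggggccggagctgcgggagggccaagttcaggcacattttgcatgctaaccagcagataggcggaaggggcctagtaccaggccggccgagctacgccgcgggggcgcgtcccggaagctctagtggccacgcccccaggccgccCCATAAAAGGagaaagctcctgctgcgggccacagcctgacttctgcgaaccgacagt
Dusp5: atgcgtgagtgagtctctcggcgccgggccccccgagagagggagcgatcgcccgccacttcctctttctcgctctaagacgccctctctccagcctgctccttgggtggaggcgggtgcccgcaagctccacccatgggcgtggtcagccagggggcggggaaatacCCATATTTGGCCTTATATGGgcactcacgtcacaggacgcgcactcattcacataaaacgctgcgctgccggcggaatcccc
The call of Myl9, a gene chosen after its value was seen, rested on single libraries as given above. Dusp5 holds 2 boxes side by side, 82 and 72 bases before the start, and the boxes of Zfp36 and Filip1l begin 58 and 62 bases before it.

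Of the 12791 genes 9711 had a promoter in the RefSeq table, and 143 of these (1.47%) held a CArG box. A gene was counted if any of its listed starts held a match, and the number of starts was not taken into account. The box stood in 3 of 14 contractile genes with an entry (Myl9, Filip1l and Cnn2), in 2 of 17 immediate early genes (Zfp36 and Egr2) and in 1 of 12 ERK feedback genes (Dusp5). Tagln and Ier2 had no entry and were not searched. Only exact matches within the 250 bases were counted, so a gene without one is not shown to lack an SRF site. Egr2 was lower, at -0.61 ± 0.10. Cnn2 had 0.18 ± 0.07 and did not pass (adjusted p = 0.0523), and with the replicate number as a block it passed (0.18, adjusted p = 0.0158), as it did without WT 4 or Nuc 2. Among genes called at least 2-fold higher 7 of the 293 with an entry (2.39%) held the box and among those lower 5 of 150 (3.33%). The AP-1 site TGANTCA, searched on both strands as was the CArG box, stood in 539 genes with an entry (5.55%), in 28 of the 293 (9.56%) and in 10 of the 150 (6.67%). No immediate early or ERK feedback gene with an entry held it, and 2 contractile genes did (Mylk and Cald1). A match is a description of these letters and not of binding.

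YAP and TEAD targets, a readout of cell spreading and tension, were lower at 6 and higher at 2 of 15 measured members. In all 53.3% were called, against 28.8% of all genes, but the median log2 fold change was 0.09. Ccn1, a secreted matricellular protein and also an early serum-response gene, was 8.78, 8.85, 8.76 and 8.90 in the WT libraries and 6.96, 7.03, 6.86 and 7.07 in the Nuc libraries. It was 3.59-fold lower in Nuc (-1.84 ± 0.09), and KO and Cyto had 8.59 and 8.06. Amotl2 and the tissue factor gene F3 were lower, at -0.58 ± 0.08 and -0.89 ± 0.06. Ankrd1 was 0.90, 0.87, 1.08 and 1.46 in the WT libraries and -1.78, -1.93, -2.19 and -1.90 in the Nuc libraries (-3.03 ± 0.32, or -1.31 with 1 added on the linear scale). Cyto had the highest Ankrd1 mean of the 4 lines, 4.62. Yap1, a member of the list that encodes YAP itself and is not a target, was higher by 0.43 ± 0.05. Axl and Lats2 had 0.09 and 0.09 and did not pass.

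Collagen genes differed little in size. Of 20 measured collagen genes 9 were called higher and 2 lower. Col8a1, a short-chain collagen, had the highest value, 1.00 ± 0.08, followed by Col12a1 (0.74 ± 0.07), which sits on the surface of fibrils. Col6a1 and Col6a3, of the beaded filaments, were higher by 0.25 ± 0.05 and 0.50 ± 0.10, and Col1a2, of type I collagen, by 0.23 ± 0.05, a call lost with quantile normalization (0.21, adjusted p = 0.171). Col5a2 and Col16a1 had 0.01 and -0.07 and did not pass.

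Enzymes that process and crosslink collagen went both ways, 8 higher and 6 lower of 22. Lox, the lysyl oxidase that starts crosslinks in collagen and elastin, was 11.23, 11.21, 11.22 and 11.16 in the WT libraries and 10.46, 10.49, 10.52 and 10.27 in the Nuc libraries (-0.77 ± 0.05). Its relative Loxl4 was lower, at -0.75 ± 0.07. Adamts2, which trims the amino end of procollagen, and P4ha3, a prolyl hydroxylase subunit, were higher by 0.63 ± 0.06 and 1.02 ± 0.08, on the side of Ctsk and Loxl2. Loxl1 and Serpinh1 had -0.02 and -0.05 and did not pass.

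Elastic fibre genes had wide differences in both directions, 5 higher and 4 lower of 14 measured. Mfap5, a microfibril component, was 3.42, 3.44, 3.76 and 3.37 in the WT libraries and 6.19, 6.29, 6.32 and 6.51 in the Nuc libraries, 7.10-fold higher (2.83 ± 0.13). KO (3.49) was level with WT and Cyto (4.30) was between. Ltbp2, which binds microfibrils, was higher by 1.68 ± 0.21, and Fbln2, fibulin-2, by 0.64 ± 0.05. Ltbp1, which holds latent TGF-beta in the matrix, was lower, at -1.0 ± 0.07.

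Fbn2, the fibrillin of developing tissue, was 5.94, 5.94, 6.03 and 5.69 in the WT libraries and 3.25, 2.50, 1.06 and 2.25 in the Nuc libraries. The fold change was -3.63 ± 0.52, and the Nuc libraries were far more spread than the WT ones. KO and Cyto were lower still, at 1.38 and -0.37. Fbn1, the main fibrillin, had -0.13 ± 0.14 and did not pass (adjusted p = 0.532), though it did with the trend of each library on transcript length taken out (-0.20, adjusted p = 0.0337). Eln, the elastin gene, chosen after its value was seen, was lower, at -1.98 ± 0.31.

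**Figure D3:**
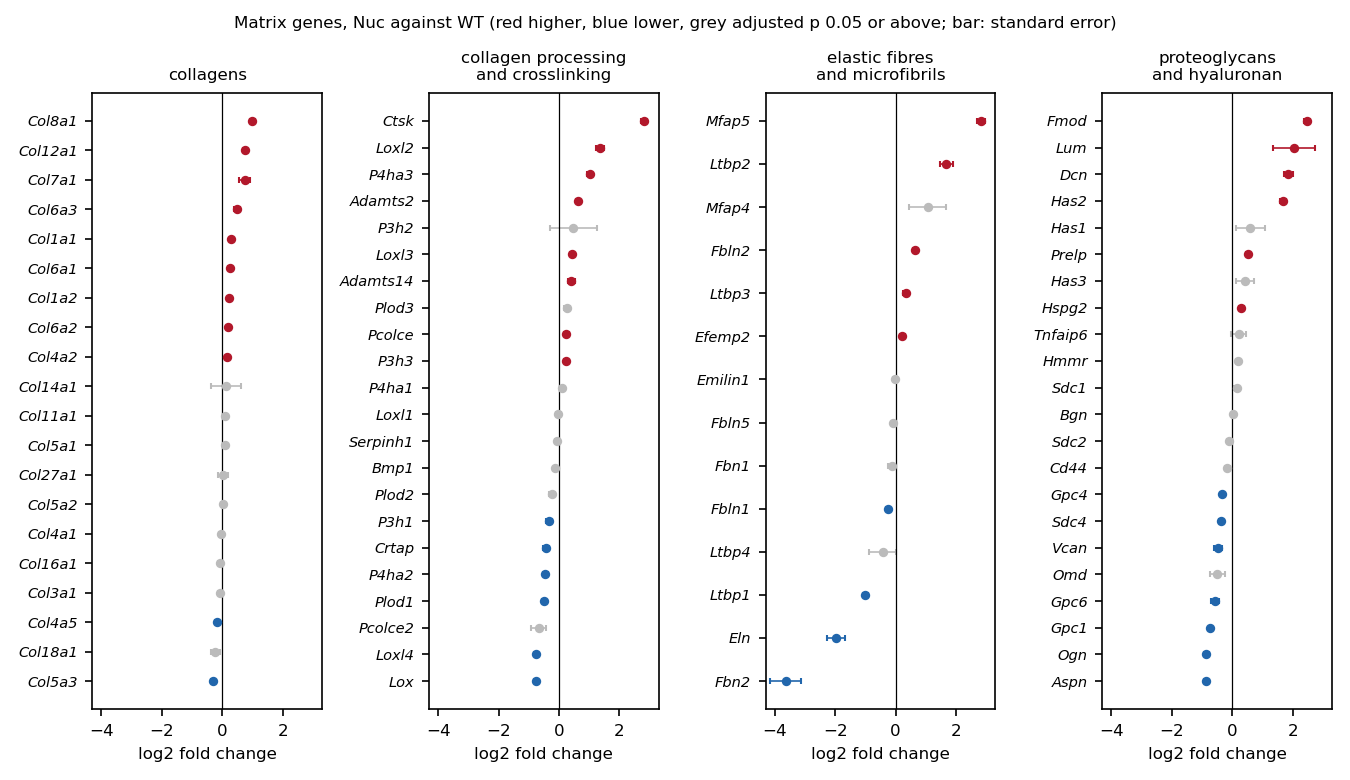
Log2 fold change of Nuc against WT (x axis, bars are limma's standard error) for all measured collagens, collagen-processing enzymes, elastic fibre genes and proteoglycan and hyaluronan genes, sorted within each panel. Ctsk, Mfap5, Fmod, Dcn and Has2 lie far to the right, Fbn2 and Eln far to the left, and the collagens cluster near 0.

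Small leucine-rich proteoglycans, which coat collagen fibrils, were split within the family. Fmod (fibromodulin) was 4.33, 4.20, 4.32 and 4.25 in the WT libraries and 6.64, 6.75, 6.80 and 6.80 in the Nuc libraries, a 5.55-fold difference (2.47 ± 0.10). KO and Cyto had 3.17 and 3.83, both below WT. Dcn (decorin) was higher by 1.86 ± 0.14, whereas Aspn (asporin) was lower, at -0.86 ± 0.07, and Bgn (biglycan) had 0.04 ± 0.05 (adjusted p = 0.602). Has2, the main hyaluronan synthase, was 4.13, 4.07, 4.13 and 4.05 in the WT libraries and 5.93, 5.73, 5.77 and 5.67 in the Nuc libraries (1.68 ± 0.09). Gpc1, a glypican gene, was lower, at -0.72 ± 0.06. In all, 6 of the 22 measured members were higher and 7 lower.

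Matricellular genes were called at 14 of 18 members, 9 higher and 5 lower. Apart from Clu, Postn (periostin) and Matn2 (matrilin-2) were lower, at -0.54 ± 0.05 and -0.32 ± 0.05. Thbs2 (thrombospondin-2) and Svep1 were higher by 0.52 ± 0.06 and 0.93 ± 0.14. Proteases and inhibitors were called at 19 of 24 members, 12 higher and 7 lower. Adamts1 and Mmp9 were lower, at -0.97 ± 0.06 and -1.88 ± 0.13, as was Plau. Adamts9 and Mmp11 were higher by 0.87 ± 0.09 and 0.54 ± 0.07.

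Receptors for the matrix were called at 11 of 22 integrin and laminin genes, 7 higher and 4 lower. Itgb8, which with alpha-v activates latent TGF-beta, was 4.97, 4.77, 5.02 and 4.52 in the WT libraries and 1.52, 1.24, 0.64 and -0.06 in the Nuc libraries, a log2 fold change of -3.98 ± 0.25. KO had 2.35 and Cyto 4.08, so Nuc was the lowest line. Itga11, a collagen receptor of fibroblasts, was higher by 1.13 ± 0.10 and Itga5, of the fibronectin receptor, by 0.46 ± 0.05. Lama4, a laminin chain, and Nid1 (nidogen) were lower, at -1.09 ± 0.09 and -0.74 ± 0.08.

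TGF-beta and BMP pathway genes were called at 7 of 23 members, 5 higher and 2 lower, near the share of all genes. The number higher was 3 without WT 4, Nuc 1, Nuc 2 or Nuc 3. The ligands Tgfb2 and Tgfb3 had 0.08 and -0.03 and did not pass. The receptor gene Tgfbr1 was higher by 0.41 ± 0.09 and Bmpr1a lower, at -0.42 ± 0.09. Smad7 and Skil, feedback inhibitors that TGF-beta induces, were higher by 0.99 ± 0.20 and 0.88 ± 0.12. Id1, a target of BMP, had 0.02 ± 0.10 (adjusted p = 0.915). Inhbb, an activin subunit, was lower, at -1.87 ± 0.21.

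Among 19 measured Wnt genes 4 were higher and 3 lower (36.8% called, against 28.8% of all genes), with a median of 0.00. Ror2, a Wnt receptor, was 4.35, 4.34, 4.44 and 4.38 in the WT libraries and 2.04, 2.06, 1.95 and 2.36 in the Nuc libraries (-2.27 ± 0.13). Its KO mean was 4.73. Lef1, a transcription factor of the pathway, and the receptor gene Fzd8 were higher by 1.5 ± 0.32 and 0.72 ± 0.09, and Lrp5 was lower, at -0.34 ± 0.07. Wnt11, at -3.29, -1.34, -1.53 and -1.72 in the WT libraries and 1.29, 1.40, 0.57 and 1.24 in the Nuc libraries, was near the lowest listed value in WT. Axin2, a direct target of beta-catenin, had 0.26 ± 0.49 (adjusted p = 0.735).

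Growth factor genes were called at 13 of 23 members, 7 higher and 6 lower, with 4 higher without Nuc 3. Igfbp6, which binds IGF2, was lower, at -1.24 ± 0.10, while Igfbp5 was higher by 1.10 ± 0.13. Fgf2 was 3.20, 2.99, 3.48 and 2.94 in the WT libraries and 4.94, 4.76, 4.95 and 4.17 in the Nuc libraries (1.55 ± 0.18), whereas Fgf7, made by fibroblasts for epithelia, was lower, at -0.44 ± 0.06. Pdgfrb, a receptor of platelet-derived growth factor, was higher by 0.64 ± 0.05. Igf1, Igf1r, Hgf and Met did not pass, with values from -0.09 to 0.32.

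Guidance cues and their receptors, which steer axons and also cells of vessels and connective tissue, leaned higher. Of 32 measured members 14 were called higher and 3 lower, with a median of 0.27. Sema3c was 5.78, 5.77, 5.81 and 5.75 in the WT libraries and 7.15, 7.06, 7.05 and 7.0 in the Nuc libraries, 2.44-fold higher. Unc5b, a netrin receptor gene, was higher by 0.61 ± 0.06. Sema3f and Nrp2, which encode a ligand and its receptor, were lower, at -1.15 ± 0.11 and -1.04 ± 0.08, and Slit3 at -1.87 ± 0.19. Plxna2, Efnb1 and Ephb4 had -0.04, -0.12 and 0.03 and did not pass.

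Complement genes were called higher at 6 of 11 measured members and lower at 1. The gene that was lower was C3, the central component. Its level was 6.36, 6.01, 6.09 and 6.00 in the WT libraries and 3.19, 1.58, 0.55 and 1.18 in the Nuc libraries. The 4 Nuc libraries were more spread than those of WT yet all below them, with a log2 fold change of -4.49 ± 0.37, and KO and Cyto had 5.99 and 5.07. C4b, the partner of C3 upstream, was 1.43, 0.92, 1.66 and 0.02 in the WT libraries and 2.85, 3.73, 3.29 and 3.00 in the Nuc libraries (2.21 ± 0.36). C1s1 and C1ra, the proteases of the first component, were higher by 0.73 ± 0.09 and 0.44 ± 0.08.

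Chemokines and inflammatory factors went both ways, 5 higher and 5 lower of 16, with 3 higher when Nuc and WT were fitted alone. Cxcl12, which retains blood progenitors and lymphocytes, was 9.72, 9.68, 9.63 and 9.71 in the WT libraries and 10.52, 10.54, 10.65 and 10.70 in the Nuc libraries (0.92 ± 0.05). Cxcl1, which draws neutrophils, was 4.10, 4.25, 3.82 and 4.22 in the WT libraries and 2.05, 1.37, 1.86 and 2.31 in the Nuc libraries (-2.20 ± 0.17), and KO and Cyto had 5.26 and 4.19. Ptgs2 and Ptges, which make prostaglandin E2, were lower, at -0.76 ± 0.09 and -0.66 ± 0.12, as was Cx3cl1 at -0.88 ± 0.12. Il6 had 0.46 ± 0.39 (adjusted p = 0.418).

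Of 22 measured interferon-stimulated genes 1 was called higher and 3 lower (18.2%, against 28.8% of all genes), and 1 each way was at least 2-fold. Ifit2 was lower, at -0.77 ± 0.12, and Irf7 and Isg15 had -0.11 and 0.68 and did not pass. Of 14 MHC class I and immunoproteasome genes 3 were higher and 2 lower, a share near that of all genes. H2-D1 was lower, at -0.46 ± 0.09, and Tap2, a peptide transporter subunit, was higher by 0.62 ± 0.14, while B2m had 0.06 ± 0.08 and did not pass. H2-D1 shares sequence with other class I genes, so its value is uncertain. Serpina3n, among 9 measured serpins of the A3 and B groups (3 higher, 2 lower), was lower, at -1.29 ± 0.18.

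Stress programmes showed single genes more than a shared direction. Of 20 integrated stress response genes 7 were higher and 2 lower. Slc7a11, the cystine importer that feeds glutathione, was 2.31, 2.35, 2.28 and 2.41 in the WT libraries and 4.90, 4.8, 4.93 and 4.46 in the Nuc libraries, 5.42-fold higher (2.44 ± 0.15). KO and Cyto were at 4.11 and 3.83, so WT was lowest. Mthfd2, of mitochondrial folate metabolism, and Nupr1 were higher by 0.70 ± 0.07 and 0.81 ± 0.11. The transcription factor gene Atf4 had -0.02 ± 0.08 and Slc7a5, an amino acid carrier, -0.09 ± 0.06, and neither passed (adjusted p = 0.856 and 0.312).

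NRF2 targets were called at 9 of 16 members, 5 higher and 4 lower. Hmox1, heme oxygenase, was higher by 0.72 ± 0.08, and Gstm1 and Gsr (glutathione reductase) were lower, at -0.74 ± 0.10 and -0.49 ± 0.10, as was G6pdx. Nfe2l2, which encodes NRF2, had -0.07 ± 0.06 and Gclc did not pass (adjusted p = 0.401 and 0.997). Among 10 metallothionein and iron genes Tfrc, the transferrin receptor, and Mt2 were lower, at -0.93 ± 0.12 and -1.11 ± 0.19, and the iron exporter Slc40a1 was higher by 0.78 ± 0.17.

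Endoplasmic reticulum chaperones were called at 10 of 20 members, 5 each way. The number higher was 2 without Nuc 3 and 3 without WT 2, WT 3, Nuc 1 or Nuc 2, and the number lower was 1 without WT 4, 3 without Nuc 1 or Nuc 2 and 2 with quantile normalization. Xbp1 was higher by 0.27 ± 0.06, and Sdf2l1 was lower, at -0.52 ± 0.15. Hypoxia genes were lower at 5 and higher at 1 of 18 measured (33.3% called, against 28.8% of all genes). Ero1a, which oxidises protein disulfide isomerase, was lower, at -0.53 ± 0.08, and so was Egln3, an oxygen sensor, at -0.50 ± 0.12, while Hif1a had 0.03 ± 0.07 and did not pass.

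Lysosome genes were higher at 8 and lower at 3 of 23 members. Hexa, of hexosaminidase, and Psap, of the saposins, were higher by 0.70 ± 0.08 and 0.37 ± 0.06. Ctsh, the gene of cathepsin H, was 2.92, 3.18, 3.6 and 3.68 in the WT libraries and -1.46, -0.44, -1.29 and 0.18 in the Nuc libraries (-4.10 ± 0.33), with KO at 2.28 and Cyto at 0.31. The membrane gene Lamp2 had 0.04 ± 0.05 and did not pass.

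Genes of DNA replication were lower at 12 and higher at 2 of 26 members, with a median of -0.18. Cdt1, which loads the MCM helicase, was 5.33, 5.35, 5.31 and 5.59 in the WT libraries and 4.78, 4.60, 4.48 and 4.45 in the Nuc libraries (-0.82 ± 0.10). The helicase genes Mcm4, Mcm5 and Mcm3 were lower, at -0.67 ± 0.05, -0.70 ± 0.07 and -0.58 ± 0.08. Mcm2, of the same complex, had 0.14 ± 0.05 and did not pass (adjusted p = 0.0531), and with the replicate number as a block it passed (0.14, adjusted p = 0.0473). E2f1 and Ccne1 had -0.03 and 0.08 and did not pass.

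Genes of G2 and mitosis did not follow. Of 26 members 3 were higher and 1 lower, below the share of all genes. Foxm1, a driver of the group, was higher by 0.59 ± 0.08, while Ccnb1, Cdk1, Top2a and Mki67 had 0.03, 0.09, 0.03 and 0.11 and did not pass. Of 21 measured CDK inhibitors, D cyclins and p53 targets 2 were higher and 7 lower (42.9% called, against 28.8% of all genes). The D cyclins Ccnd2 and Ccnd1 were higher, Ccnd2 at 9.56, 9.51, 9.60 and 9.44 in the WT libraries and 10.46, 10.42, 10.43 and 10.12 in the Nuc libraries (0.83 ± 0.08) and Ccnd1 by 0.63 ± 0.04. Trp53 was lower, at -0.50 ± 0.05, as were Fas (-0.81 ± 0.09) and Gdf15 (-0.99 ± 0.14), but Cdkn1a and Mdm2, the best known p53 targets, had -0.08 and -0.0002 and did not pass.

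**Figure D4:**
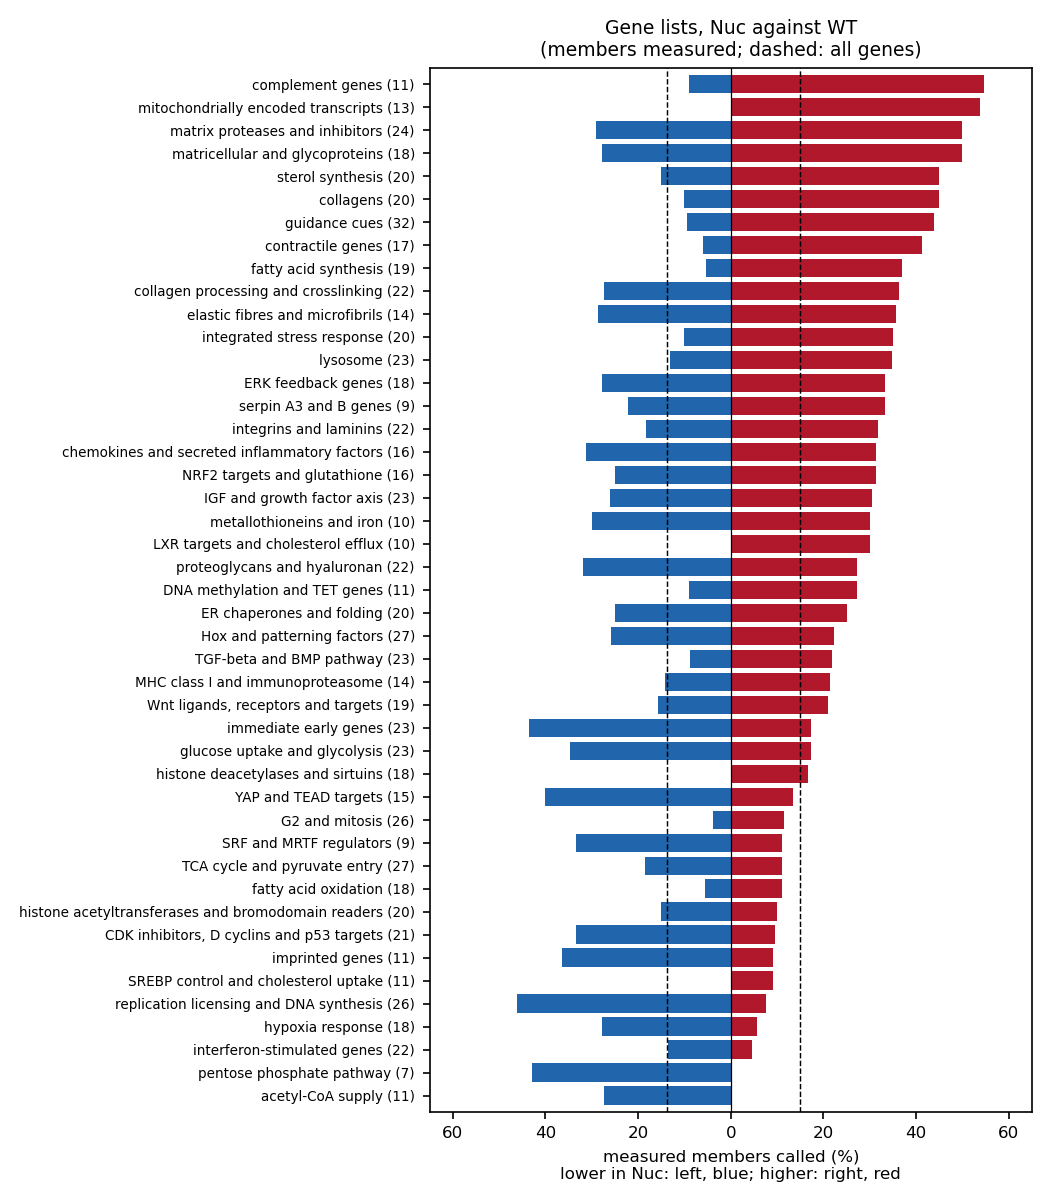
Share of the measured members of each of 45 gene lists (number of members in parentheses) called lower in Nuc (left) or higher (right), in percent of members. Dashed lines mark the shares over all genes, 13.8% lower and 15% higher. Complement and mitochondrially encoded transcripts reach furthest to the right, and replication, immediate early and pentose phosphate genes furthest to the left.

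Some genes had levels near the floor of the table in one line. Naalad2, a relative of the glutamate carboxypeptidase gene Folh1, was -3.29, -2.78, -2.52 and -2.17 in the WT libraries and 5.14, 5.41, 4.99 and 4.99 in the Nuc libraries. Mef2c, a transcription factor of muscle, was -1.45, -3.29, -2.77 and -2.27 in the WT libraries and 5.2, 4.67, 4.81 and 4.19 in the Nuc libraries, and Slc16a7, a monocarboxylate transporter gene, was -2.37, -1.44, -1.13 and -2.68 in the WT libraries and 4.67, 5.60, 4.39 and 4.30 in the Nuc libraries. In KO and Cyto the means were 3.67 and 3.89 for Naalad2, 3.94 and 1.90 for Mef2c, and 1.24 and -0.93 for Slc16a7. Mageb7-ps, listed as a pseudogene, was at the lowest value in all WT libraries and had a mean of 2.81 in Nuc.

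In the other direction stood Kctd12, an auxiliary subunit gene of GABA-B receptors, at 3.62, 3.87, 3.68 and 3.81 in the WT libraries and -3.29, -3.29, -3.29 and -3.29 in the Nuc libraries. All 4 Nuc libraries were at the lowest listed value. The same held for Unc5a, a netrin receptor gene, with a WT mean of 3.46, and for Mark1, a kinase gene of microtubules, with 2.32. These were the 3 genes at the lowest value in all Nuc libraries with all WT libraries at 0 or above, and 3 genes showed the reverse (Magea9, Mageb7-ps and Mpzl3). Of each 3, 1 was also at the lowest value in all KO libraries and none in all Cyto libraries. Fold changes are not given for them, since the lowest value is not a measured level and a gene there is not shown to be absent.

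Of 11 measured imprinted genes, which are read from 1 parental copy, 1 was higher and 4 lower. Sgce and Peg10, neighbours that share a promoter region, were lower, at -1.39 ± 0.30 and -1.90 ± 0.48 (Peg10 at -1.16 with 1 added on the linear scale). Sgce was 5.68, 5.67, 5.55 and 5.75 in the WT libraries and 4.16, 4.24, 4.40 and 4.29 in the Nuc libraries, with a KO mean of -0.79 and a Cyto mean of 4.11. Plagl1 was higher by 1.31 ± 0.22, and Grb10 was lower, at -0.48 ± 0.06 (-0.27 with quantile normalization). Hox and other patterning genes, which record where a fibroblast came from, were called at 13 of 27 members, 6 higher and 7 lower. Tbx15 and Twist2 were lower, at -0.67 ± 0.07 and -0.74 ± 0.13, and Tbx2 and Hoxc9 were higher by 1.36 ± 0.21 and 1.22 ± 0.21.

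The 1 mM glucose medium gave the same pair of lines in 8 further libraries. That medium was batch 1 and 10 mM glucose batch 2, and each table was normalized on its own, so medium and batch cannot be told apart and only the fold changes were set against each other. Both tables listed 11931 genes, and 1225 of them (10.3%) had a fold change that differed between them at an adjusted p under 0.05. Tagln had 3.5 in 1 mM glucose, a difference of -0.08 ± 0.21 (adjusted p = 0.866). Ctsk had 1.93 in 1 mM glucose (difference -0.88 ± 0.11, adjusted p = 2.78e-06), and Acly had -1.60 (-0.50 ± 0.11, 0.00407). Kcnj15, Gstp1 and P2rx3 had 2.70, 1.26 and 1.30, and none of the 3 differences passed (adjusted p from 0.288 to 0.561). With arrayWeights the difference of P2rx3 was -0.32 and passed (adjusted p = 0.0306), against -0.17.

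Among the lowest genes, Ces2g and Dpt differed between media. Ces2g had -2.19 in 1 mM glucose (0.64 ± 0.13, adjusted p = 0.00102) and Dpt -3.17 (-1.54 ± 0.15, 4.3e-08). Clu, Nsg1 and Ccn1 had -2.15, -2.46 and -0.66 (adjusted p of the difference 0.076, 0.41 and 0.0876). The differences of Clu and Ccn1 passed when 1 library in 1 mM glucose was left out, WT 2 for Clu (0.50, 0.0307) and WT 4 for Ccn1 (1.44, 0.0324). That of Clu also passed with arrayWeights (0.52, 0.00337) and with the length trend taken out (0.45, 0.0325). The next 5 genes were chosen after their values were seen. Fbn2 was further down in 1 mM glucose, at -8.16 (-4.52 ± 1.04, 0.00458), or by -2.68 with 1 added on the linear scale (0.000936). C3 was less far down, at -2.56 (1.93 ± 0.41, 0.00245). Fos had -0.28 in 1 mM glucose, where it did not pass, and its difference between media was 2.48 ± 0.66 (0.0138). For Egr1 the fold change was -0.25 and the difference did not pass (1.14 ± 0.52, 0.18). Mfap5 had 2.75, with a difference of -0.08 (0.859). Naalad2 in WT and Kctd12 in Nuc were again near the floor, and no difference is given for them.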

How the data were processed

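RNA was sequenced from all samples. The authors used kallisto, edgeR and limma and the mouse build GRCm39, per the submitters' processing notes. The sources used here name no versions, settings or filter on listed genes. The authors deposited 1 table per medium of log2 values, which read as log2 CPM whose floor was -3.293 for 10 mM glucose and -3.592 for 1 mM. The 1 entry without a symbol in each table was left out, which left 12791 and 12053 genes. Whole reads could not be recovered, so depth, and with it any counting interval, is unknown.

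Nuc and WT were compared with limma 3.58.1 in R 4.3.3 on the values as deposited. All 15 libraries in 10 mM glucose entered 1 fit of a mean per group, with limma's trend on intensity,, and p-values were adjusted by Benjamini-Hochberg over all 12791 genes. The Cyto library numbered 3, which the submitters set aside, was not analysed here. The fold changes of the media were compared by limma over the 11931 shared genes. The values are not per length. Levels of different genes were therefore not compared, except to split genes at the median level and to sum over listed genes.

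Deviations of same-numbered Nuc and WT libraries in 10 mM glucose had correlations of 0.23, 0.17, 0.12 and 0.62 for numbers 1 to 4. Only number 4 stood out. Differently numbered pairs had 0.08 to 0.28 among libraries 1 to 3 and -0.46 to -0.20 where 1 of the libraries was number 4. The labels do not say what a number marks, and these values show no pairing for numbers 1 to 3. A fit with the number as a block was run beside the main one.

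The gene lists (45 of pathways or families and 9 of markers) were written from general knowledge, and the comparison and lists were chosen with earlier results of these data known. Lists are described by counts and medians, with no set test. Named genes were Acly, the 15 highest and 15 lowest called genes at or above the median level with groups that did not overlap, the 4 highest and 4 lowest below it, and up to 5 per list with the smallest adjusted p. Predicted or clone-named genes (Gm with digits, Rik) and symbols that repeat an identifier were skipped. Members that did not pass were named to say so. Some members count in their lists but are not reported here by name. Mvk, Myl9, Klf10, Fosl2, Egr2, Eln, Magea9 and Mpzl3, and 5 of the genes compared between media, were chosen after their values were seen. Promoters were matched by symbol to a RefSeq table of GRCm38.p6, which is not the build of the tables, and no other coordinates are given.

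Alternatives were no intensity trend, equal library medians, quantile normalization, a minimum mean log2 value of 0, arrayWeights, 1 added on the linear scale, Nuc and WT alone, the replicate block, leaving out each library or all libraries numbered 4, and, for the mitochondrial share, another total or 1 transcript less. Removal of each library's trend on transcript length (spline of 5 degrees of freedom, lengths for 95.6% of genes) was added after seeing the data.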

Additional observations from a re-analysis of the deposited data

Results flagged for a closer look

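In 38 of the 554 groups of 4 libraries checked (Nuc and WT at every gene named above, and the mitochondrial share), 1 library lay far from the other 3 by Dixon's test. Chance gives that in about 1 in 20 groups. The outlying libraries were not spread evenly, since Nuc 4 was the outlying one most often, followed by WT 4. Nuc 4 lay below the other Nuc libraries for Adamts9 (6.32), Ccnd2 (10.12), Col6a3 (10.54), Dusp1 (3.12), Hif1a (8.79), Loxl2 (6.29), Met (5.45), Nid1 (8.03), Slc5a3 (5.49), Sort1 (5.61), Srebf2 (8.33), Svep1 (6.24), Vcl (7.90), mt-Co1 (13.32), mt-Cytb (11.97) and mt-Nd4 (11.62), and above them for Atf4 (9.21), Ccne1 (5.29) and Ier2 (6.05), as log2 levels. WT 4 lay below the other WT libraries for P4ha3 (4.65) and Svep1 (5.53), and above them for Cdt1 (5.59), Fdft1 (6.80), Hdac2 (7.56), Hdac3 (6.70), Ier2 (7.26) and Pltp (7.93), as log2 levels. Nuc 1 was lowest for C1ra (7.46). Nuc 2 was lowest for Uhrf1 (6.58) and highest for Spry4 (4.02). WT 1 was highest for Ccnb1 (6.72), Dusp1 (5.21) and Lamp2 (8.95). WT 2 was lowest for Gsr (5.33) and Hdac7 (7.11) and highest for Acss2 (4.07). WT 3 was lowest for Brd1 (6.68) and highest for G6pdx (6.66). 

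The fold change of Nuc against WT differed between media, by limma's test of the difference itself, at 7 of the 16 genes examined. As 1 mM minus 10 mM glucose on the log2 scale, the differences were -0.50 for Acly, -0.88 for Ctsk, 0.64 for Ces2g, -1.54 for Dpt, 2.48 for Fos, 1.93 for C3 and -4.52 for Fbn2. Batch changed with the medium, and its part in these differences cannot be told apart from that of glucose.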

How the results depend on the processing

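Depth is unknown, a gene at the lowest value of the table is not shown to be absent, and 4 libraries per line that may share a culture limit what the p-values cover. Of 276 genes named above, 262 kept their direction and their side of the threshold under each of the 18 alternatives in 10 mM glucose that gave them a value. With a minimum mean log2 value of 0, 6 named genes had no value, and with the length trend removed 2 had none. The number of genes called, 3685, ran from 3022 (without Nuc 3) to 4008 (without Nuc 4) when single libraries were left out, with 1572 to 2031 higher and 1450 to 1977 lower. With the replicate block it was 4257 (2196 higher, 2061 lower). The block added the calls given above for Acaca, Scd1, Cnn2 and Mcm2 and changed no other call of a named gene. With arrayWeights the number was 5056, and under every other alternative too the overall number stayed within 1.5 times the reported one. Counts per list were less stable. Of the 90 counts of the 45 lists (higher and lower), 7 to 14 moved by over 1.5 times without single libraries, 11 without the libraries numbered 4, 16 with arrayWeights and 7 or fewer under the other alternatives. Most of these were counts under 5, and the larger ones are given with their lists.

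The number of genes whose fold change differed between media, 1225, was 2245 with arrayWeights and 657 without the libraries numbered 4, and the cause was not tested. It ran from 960 to 1370 without single libraries. With the replicate number as a block it was 1316, and the differences of Ccn1 and Egr1 passed (adjusted p = 6.36e-05 and 0.000493). In 1 mM glucose same-numbered libraries did not deviate together (correlations of 0.24, -0.11, -0.05 and -0.10), so there the samples share only a number. The difference in mitochondrial share was 0.632 to 0.671 percentage points without single libraries, each with an exact p of 0.0571, the smallest that 3 against 4 libraries allow.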
